A study of Mus musculus with 16 samples.

Results

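Microglia, the resident phagocytes of the brain, take up antibody-coated material through Fc receptors, complement-coated material through integrins, and modified lipids through scavenger receptors. The genes described here are 10 such receptors and adaptors: Msr1, Fcgr1, Fcgr2b, Fcgr3, Fcgr4, Fcer1g, Tyrobp, Trem2, Cd68 and Itgam. They were chosen by symbol, matched through the Ensembl identifiers of the deposited count table, and all 10 were found among its 19449 genes. Total RNA of the hippocampus was sequenced from mice labelled 3 month old, which either lacked Tspo (KO) or were wild type (WT). Tspo encodes the translocator protein of the outer mitochondrial membrane, whose level is used as a marker of activated glia. The groups were KO injected with lipopolysaccharide (KO LPS), WT injected with lipopolysaccharide (WT LPS), KO injected with PBS (KO PBS) and WT injected with PBS (WT PBS), with 4 libraries each. Lipopolysaccharide (LPS) is a bacterial cell wall component recognised by the receptor TLR4, and PBS is its vehicle. The labels give neither an LPS dose nor a time after injection, nor how the deletion was made, nor whether replicates come from separate animals. The p-values below therefore measure the spread between these libraries, which may in part be technical.

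Signalling by these receptors runs through a few shared parts. The activating IgG receptors (Fcgr1, Fcgr3, Fcgr4) need the common gamma chain, Fcer1g, whose ITAM motif recruits the kinase Syk; Trem2, a receptor for lipids and lipoproteins, uses the related adaptor Tyrobp (DAP12). Fcgr2b is the inhibitory IgG receptor. Msr1 is a scavenger receptor for modified lipoproteins and polyanions, Itgam (CD11b) is the alpha chain of complement receptor 3, and Cd68 is a glycoprotein of late endosomes and lysosomes in phagocytes.

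In the GENCODE M21 annotation of GRCm38, 4 of the genes lie in one stretch of chromosome 1. Fcgr2b (ENSMUSG00000026656) occupies bases 170958617 to 170976547 on the minus strand and Fcgr4 (ENSMUSG00000059089) 171018920 to 171029761 on the plus strand. Fcgr3 (ENSMUSG00000059498; 171051174 to 171064935) and Fcer1g (ENSMUSG00000058715; 171229572 to 171234365) follow on the minus strand. Fcgr1 (ENSMUSG00000015947) lies apart from them on chromosome 3, from 96282909 to 96293969 on the minus strand. Tyrobp (ENSMUSG00000030579) and Itgam (ENSMUSG00000030786) are on the plus strand of chromosome 7, at 30413760 to 30417585 and 128062640 to 128118491. Trem2 (ENSMUSG00000023992) is at 48346401 to 48354147 on the plus strand of chromosome 17. Cd68 (ENSMUSG00000018774) is at 69664213 to 69666153 on the minus strand of chromosome 11, and Msr1 (ENSMUSG00000025044) at 39581685 to 39642673 on the minus strand of chromosome 8. No source used here names the build behind the authors' counts.

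The RefSeq promoter table (GRCm38.p6) held windows for 8 of the 10 genes. Shown here are the 250 bases before the RefSeq start of 4 of them: 3 receptors whose transcripts stood higher in most WT LPS libraries, and Trem2, which stood lower. Each is written 5′ to 3′ on the gene's own strand, and capitals mark motif matches on either strand, searched as TTCNNNGAA (GAS), GAAANNGAAA (ISRE), GAGGAAG (PU.1) and GGGNNNNNCC (NF-kappaB). The windows are chr3:96293970-96294219 on the minus strand (Fcgr1), chr1:171018676-171018925 on the plus strand (Fcgr4), chr7:128062390-128062639 on the plus strand (Itgam) and chr17:48346151-48346400 on the plus strand (Trem2).
Fcgr1: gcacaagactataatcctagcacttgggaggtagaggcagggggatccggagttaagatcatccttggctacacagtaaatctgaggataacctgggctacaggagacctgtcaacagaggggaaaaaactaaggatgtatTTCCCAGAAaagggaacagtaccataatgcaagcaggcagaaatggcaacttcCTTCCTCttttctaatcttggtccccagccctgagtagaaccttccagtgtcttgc
Fcgr4: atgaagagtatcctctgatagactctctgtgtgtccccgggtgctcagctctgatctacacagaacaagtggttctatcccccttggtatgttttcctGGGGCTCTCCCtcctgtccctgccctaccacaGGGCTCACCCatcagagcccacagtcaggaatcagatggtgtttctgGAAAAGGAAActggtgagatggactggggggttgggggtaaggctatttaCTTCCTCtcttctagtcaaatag
Itgam: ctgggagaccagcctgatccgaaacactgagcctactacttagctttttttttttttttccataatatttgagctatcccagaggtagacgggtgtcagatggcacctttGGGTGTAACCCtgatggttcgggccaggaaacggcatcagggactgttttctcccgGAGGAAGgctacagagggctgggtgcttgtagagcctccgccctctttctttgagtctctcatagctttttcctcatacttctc
Trem2: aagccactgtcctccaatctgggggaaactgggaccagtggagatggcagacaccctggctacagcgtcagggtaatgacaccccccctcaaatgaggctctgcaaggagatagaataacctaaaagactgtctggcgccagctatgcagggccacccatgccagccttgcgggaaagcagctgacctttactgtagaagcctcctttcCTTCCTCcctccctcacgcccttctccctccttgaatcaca

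The Fcgr1 window held the GAS letters TTCCCAGAA at bases -109 to -101 from the start, and the Fcgr4 window held the ISRE letters GAAAAGGAAA at -73 to -64. GAS was found for 1 of the 8 genes and ISRE for 1 of 8, while 7.02% and 2.98% of all 32851 windows in the table held them. Fcgr3 had more than 1 window, and each gene was counted once, so these counts are per gene and the percentages per window. PU.1 names the myeloid factor Spi1. Its letters were found for 5 of the 8 genes (Fcgr1, Fcgr3, Fcgr4, Itgam and Trem2), against 10.6% of all windows. Trem2 thus shares the PU.1 letters with receptors that moved the other way. The NF-kappaB letters were in 5 of the 8 (Fcer1g, Fcgr2b, Fcgr3, Fcgr4 and Itgam) and in 45.8% of all windows; in Fcgr4 and Itgam some of these matches overlap each other. Such matches describe the letters of these windows and show no binding.

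Library totals ran from 30198619 to 50009041 counts, with 18195 to 18657 genes detected. Levels are given as CPM, counts scaled to the TMM-corrected library size. Tspo itself stood at 0.334 ± 0.12 CPM in KO LPS, 8.51 ± 4.06 CPM in WT LPS, 0.807 ± 1.02 CPM in KO PBS and 3.09 ± 1.41 CPM in WT PBS (mean ± SD, n = 4 each). In the edgeR test described below it was lower in KO LPS than in WT LPS (adjusted p = 0.00308). It did not pass in KO PBS vs WT PBS (adjusted p = 0.918) or in WT LPS vs WT PBS (0.147). The library labelled KO PBS replicate 1 held 98 Tspo counts (2.33 CPM), inside the WT PBS range of 2.06 to 5.17 CPM, so its level goes against its label. WT LPS replicate 1 stands apart from the other 3 WT LPS libraries in nearly all the genes below, and results are given with and without it. It and WT PBS replicate 1 held few choroid plexus transcripts: 7 markers summed to 14.1 and 11 CPM there, against 565.0 to 3410.0 CPM in the other 14 libraries. Codes that the labels do not explain appear in the titles. WT PBS replicates 1 to 3 share a code, WT LPS replicates 2 to 4 share another with KO PBS replicate 4, WT LPS replicate 1 shares its own with WT PBS replicate 4, and no code joins the genotypes within a treatment or the treatments within KO. What the codes mark and the groups can therefore not be told apart in the KO comparisons. Within WT the treatments share only the code of WT LPS replicate 1 and WT PBS replicate 4. The code of WT LPS replicates 2 to 4 is on no WT PBS library. For those libraries LPS and what the code marks cannot be told apart in WT LPS vs WT PBS either.

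The tissue held microglia in all groups. The summed level of 11 microglial markers (among them Csf1r, Cx3cr1 and P2ry12) was 303.0 to 377.0 CPM in KO LPS, 290.0 to 379.0 CPM in WT LPS, 314.0 to 354.0 CPM in KO PBS and 289.0 to 347.0 CPM in WT PBS, and none of the 11 was at 0 in any group. Fewer cells of a type and less RNA per cell cannot be told apart in such bulk samples.

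Under LPS, receptors for IgG, complement and modified lipids and their adaptors rose in WT hippocampus. In edgeR's quasi-likelihood test over all genes, 8 of the 9 members tested were higher in WT LPS than in WT PBS (adjusted p under 0.05) and 0 were lower, where 4.72% of all genes tested were higher and 3.85% lower. Trem2 was the exception, with lower values in 3 of 4 WT LPS libraries than in any WT PBS library. The median log2 fold change was 1.29 over the 9 members and 0.0 over all genes. Fcgr4 fell below the filter on low counts and was not among the 9. Msr1 passed that filter mainly through its WT LPS libraries, so its place among the 9 is not independent of its being high there.

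The scavenger receptor Msr1 changed most. It stood at 0.214, 17.4, 11.4 and 11.7 CPM in WT LPS replicates 1 to 4, against 0.261, 0.211, 0.166 and 0.16 CPM in WT PBS replicates 1 to 4. In WT LPS replicates 2 to 4 it was 57.0 to 87.2 times the WT PBS mean, while replicate 1, with 7 counts, lay among the WT PBS libraries. The log2 fold change was 5.65 ± 0.86 (SE; adjusted p = 0.00305, edgeR), and the 5 to 9 counts behind each WT PBS value make its size imprecise.

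**Figure D1:**
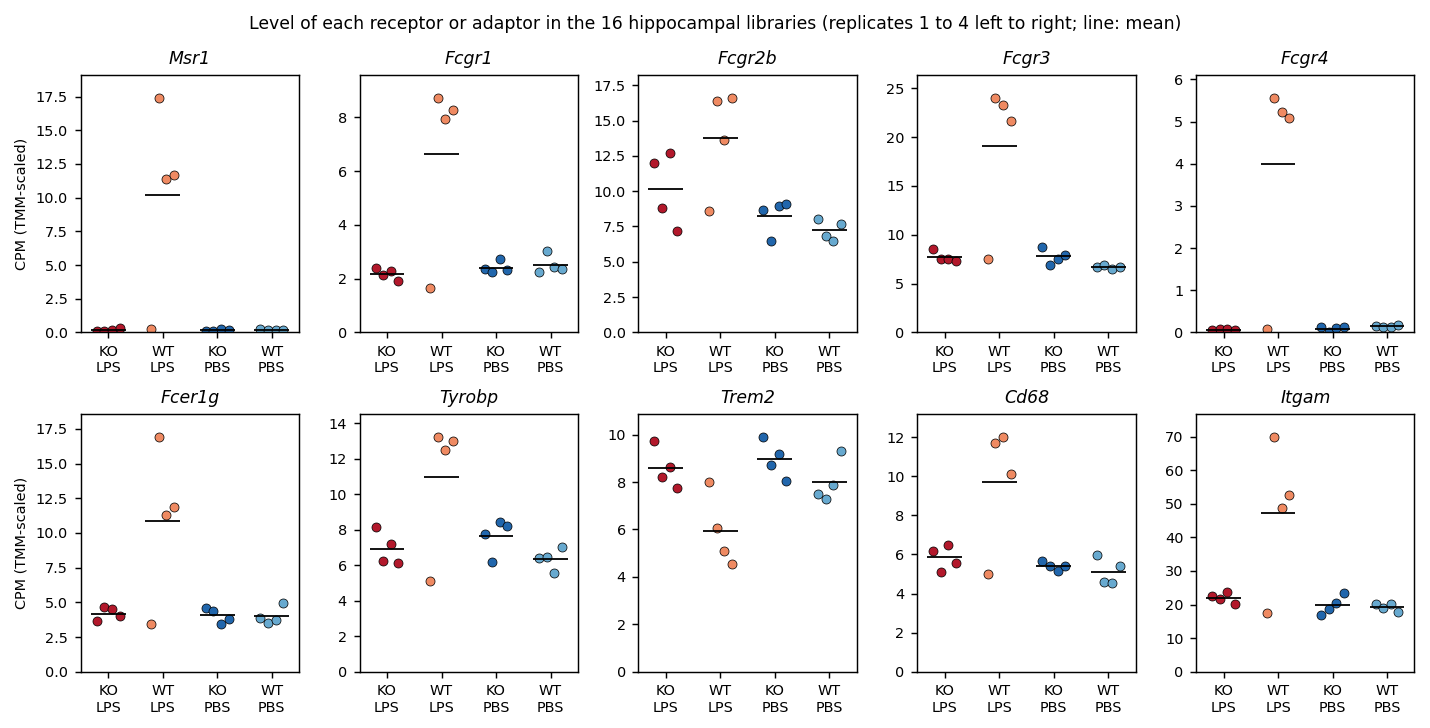
CPM of each of the 10 genes (vertical axes, each from 0) in the 4 libraries of KO LPS, WT LPS, KO PBS and WT PBS; points are libraries and lines are group means. WT LPS replicates 2 to 4 stand apart from every other library, upward for 9 genes and downward for Trem2 (4.54 to 6.06 CPM), and WT LPS replicate 1 lies near the PBS libraries in every panel.

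Among the activating IgG receptors, Fcgr3, a low-affinity receptor, stood at 7.48, 24.0, 23.3 and 21.6 CPM in WT LPS, against 6.73, 6.85, 6.44 and 6.74 CPM in WT PBS. All 4 WT LPS libraries lay above all 4 WT PBS libraries, and the log2 fold change was 1.51 ± 0.25 (adjusted p = 0.00377). Fcgr1, the high-affinity receptor, stood at 1.65, 8.72, 7.93 and 8.29 CPM in WT LPS and 2.23, 3.02, 2.42 and 2.34 CPM in WT PBS. Here WT LPS replicate 1 was the lowest of the 8 libraries, and the log2 fold change of 1.41 ± 0.34 passed (adjusted p = 0.0211).

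Fcgr4, an activating receptor for IgG2a and IgG2b in the mouse, was close to undetected outside 3 libraries. It had 3, 278, 178 and 201 counts in WT LPS replicates 1 to 4 (0.0916, 5.56, 5.23 and 5.09 CPM), against 5, 4, 4 and 7 counts in WT PBS (0.145, 0.121, 0.133 and 0.186 CPM). The 3 high libraries were 34.8 to 38.0 times the WT PBS mean, and replicate 1 lay below all WT PBS libraries. With no filter on low counts the log2 fold change was 4.73 ± 0.81 (adjusted p = 0.00429, edgeR).

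Fcgr2b, the inhibitory receptor, stood at 8.58, 16.4, 13.6 and 16.6 CPM in WT LPS and 8.01, 6.82, 6.47 and 7.67 CPM in WT PBS. The groups did not overlap, and the log2 fold change was 0.93 ± 0.21 (adjusted p = 0.0146). Of the 9 tested members, Fcgr2b and Fcgr3 were the 2 whose groups did not overlap, a pattern shown by 8.62% of all genes tested.

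Both adaptors rose. The common gamma chain Fcer1g stood at 3.42, 16.9, 11.3 and 11.9 CPM in WT LPS, against 3.86, 3.5, 3.75 and 4.93 CPM in WT PBS, a log2 fold change of 1.45 ± 0.32 (adjusted p = 0.0134). For the DAP12 gene Tyrobp the values were 5.1, 13.2, 12.5 and 13 CPM in WT LPS and 6.41, 6.45, 5.54 and 7.03 CPM in WT PBS, a log2 fold change of 0.79 ± 0.23 (adjusted p = 0.0437). In each of the 2 genes, WT LPS replicate 1 was the lowest of the 8 libraries and the other 3 were the highest.

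The integrin chain Itgam and the lysosomal Cd68 also rose. Itgam stood at 17.5, 69.8, 48.8 and 52.7 CPM in WT LPS and at 20.2, 19.1, 20.2 and 17.9 CPM in WT PBS (log2 fold change 1.29 ± 0.27, adjusted p = 0.0107). Cd68 stood at 5.01, 11.7, 12 and 10.1 CPM in WT LPS and at 5.98, 4.58, 4.52 and 5.43 CPM in WT PBS (log2 fold change 0.92 ± 0.2, adjusted p = 0.014). For Itgam replicate 1 was again the lowest of the 8, whereas for Cd68 it lay inside the WT PBS range.

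Trem2, the receptor that signals through Tyrobp, went the other way. It stood at 8.0, 6.06, 5.08 and 4.54 CPM in WT LPS and at 7.51, 7.27, 7.87 and 9.29 CPM in WT PBS. WT LPS replicates 2 to 4 were below every WT PBS library, and replicate 1 was not. The log2 fold change of -0.43 ± 0.15 did not pass in edgeR (adjusted p = 0.0872). It passed with DESeq2 (-0.44 ± 0.16, adjusted p = 0.0444) and with limma-voom (-0.56 ± 0.12, adjusted p = 0.00354).

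These calls depend on how the spread is estimated and on WT LPS replicate 1. Fitted without that library, all 10 genes had enough counts and all 10 passed: 9 were higher in WT LPS, and Trem2 was lower by a log2 fold change of -0.61 ± 0.12 (adjusted p = 0.00297), where 20.5% of all genes passed in either direction. Leaving out a library that had been seen to stand apart also narrows the spread, and Fcgr4 enters that fit only through the group where it is high. In a fit of the 8 WT libraries alone, 0 of the 8 members tested passed (adjusted p, edgeR) although all 8 had an unadjusted p under 0.05; over all genes, too, 0 of 15801 passed in that fit and 3012 had an unadjusted p under 0.05. With all 16 libraries DESeq2 called 9 of the 9 members tested and 2096 of all 16269 genes. Limma-voom with sample quality weights called 9 of the 9 and 4684 genes. In edgeR the call of Fcgr1 was lost when WT LPS replicate 2, 3 or 4 or WT PBS replicate 3 was left out (adjusted p 0.0618 to 0.0663), and that of Cd68 without WT LPS replicate 3 (0.0532). Tyrobp, nearest to the threshold, lost its call without any of WT LPS replicates 2 to 4 (0.117 to 0.122) or WT PBS replicates 1 to 4 (0.0521 to 0.119), without KO LPS replicate 2, 3 or 4 (0.0502 to 0.0547) and without KO PBS replicate 1, 3 or 4 (0.0522 to 0.0549). WT PBS replicates 2 and 3 were more alike than any other pair of a group; summed into 1 library they left 7 members called of the 10 then tested, Fcgr4 among them, with Fcgr1 at an adjusted p of 0.0518 and Tyrobp at 0.104.

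**Figure D2:**
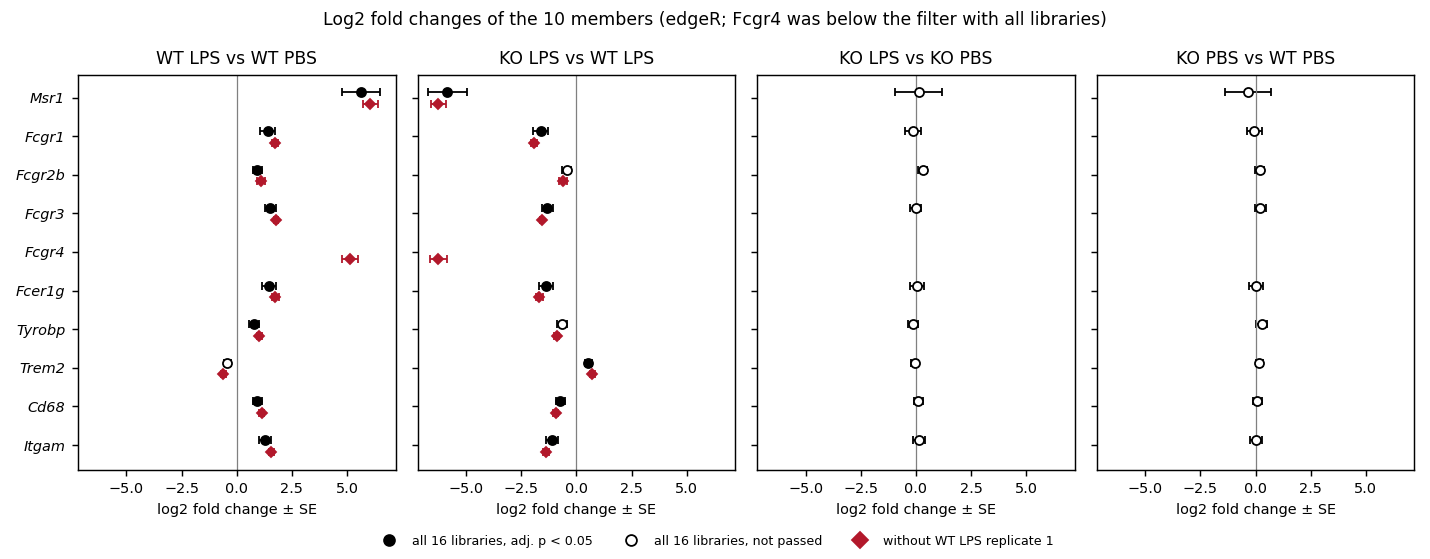
Log2 fold change ± SE of each gene in the 4 comparisons (horizontal axis; the group named first is over the second); filled circles passed adjusted p under 0.05 with all 16 libraries, open circles did not, and diamonds are the fit without WT LPS replicate 1. Changes reach 5.65 for Msr1 in WT LPS vs WT PBS and -5.85 in KO LPS vs WT LPS, while the circles of the other 2 comparisons lie between -0.33 and 0.3.

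Comparing genotypes under LPS asked whether the receptors stand at different levels in mice lacking Tspo. In KO LPS, 6 of the 9 members tested were lower than in WT LPS (Msr1, Fcgr1, Fcgr3, Fcer1g, Itgam and Cd68), where 7.28% of all genes were lower. Trem2 was the 1 member that was higher, where 4.61% of all genes were higher. The median log2 fold change was -1.1 over the 9 members. This comparison and the one above share the WT LPS libraries, so the same 3 high libraries enter both.

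Msr1 had 0.0973, 0.122, 0.192 and 0.298 CPM in KO LPS replicates 1 to 4 and lay with the PBS libraries, against the WT LPS values given above. Its log2 fold change was -5.85 ± 0.87 (adjusted p = 0.00308). Fcgr1 had 2.38, 2.15, 2.3 and 1.91 CPM in KO LPS (log2 fold change -1.61 ± 0.34, adjusted p = 0.0104). Fcgr3 had 8.51, 7.48, 7.51 and 7.27 CPM there (-1.31 ± 0.25, adjusted p = 0.00569). For these 3 genes every KO LPS library was below WT LPS replicates 2 to 4, but WT LPS replicate 1 overlapped the KO LPS range or, for Fcgr1, lay under it.

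Fcgr4 had 2, 3, 3 and 2 counts in KO LPS, 0.0486 to 0.0822 CPM, against 3, 278, 178 and 201 counts in WT LPS. Its groups did not overlap, but counts this low cannot separate KO LPS from WT LPS replicate 1. With no filter its log2 fold change was -5.85 ± 0.88 (adjusted p = 0.00303). Fcgr2b had 12, 8.78, 12.7 and 7.18 CPM in KO LPS, the widest spread of the IgG receptors in that group. The lowest of these values lies inside the WT PBS range of 6.47 to 8.01 CPM and the others lie above it. All lie below WT LPS replicates 2 to 4. The difference from WT LPS did not pass (log2 fold change -0.44 ± 0.21, adjusted p = 0.171, edgeR).

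Fcer1g was lower in KO LPS, with 3.65, 4.63, 4.5 and 3.99 CPM (log2 fold change -1.38 ± 0.32, adjusted p = 0.0139). Tyrobp had 8.15, 6.26, 7.21 and 6.11 CPM in KO LPS and its difference did not pass (-0.66 ± 0.23, adjusted p = 0.0687). Itgam was lower at 22.5, 21.6, 23.6 and 20.2 CPM (-1.1 ± 0.27, adjusted p = 0.0181), and Cd68 at 6.2, 5.12, 6.5 and 5.57 CPM (-0.73 ± 0.2, adjusted p = 0.0312). Trem2 had 9.75, 8.21, 8.64 and 7.75 CPM in KO LPS, all above WT LPS replicates 2 to 4, and was higher by a log2 fold change of 0.54 ± 0.15 (adjusted p = 0.0312).

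None of the 9 tested members had groups without overlap in this comparison, since WT LPS replicate 1 overlapped or crossed KO LPS in each, while 14.3% of all genes did not overlap. Without that library all 10 passed, 9 lower and Trem2 higher (log2 fold change 0.72 ± 0.12, adjusted p = 0.000838), where 24.3% of all genes passed. Msr1 was then at -6.26 ± 0.33, Fcgr4 at -6.26 ± 0.39, Fcgr1 at -1.92 ± 0.13, Tyrobp at -0.89 ± 0.12 and Fcgr2b at -0.61 ± 0.18. With all 16 libraries DESeq2 called 8 of the 9 members tested and 2771 of all 16269 genes, and limma-voom called 9 members and 4073 genes. In an edgeR fit of the 8 LPS libraries alone 1 of 9 members passed, and 438 of all 15982 genes. The calls of Cd68 and Trem2 were lost when WT LPS replicate 2, 3 or 4 was left out (adjusted p 0.0735 to 0.0993 for Cd68 and 0.0638 to 0.0957 for Trem2), that of Cd68 also without any one KO LPS library (0.053 to 0.0824), and that of Trem2 without KO LPS replicate 1, 2 or 3 (0.0541 to 0.0785). That of Itgam was lost without WT LPS replicate 2 or 4 (0.0592 and 0.0507), which leaves 4 members called without replicate 2 and 4 without replicate 4.

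In the KO, no difference between LPS and PBS libraries was detected in any member. In KO LPS against KO PBS 0 of the 9 members passed and 0 had an unadjusted p under 0.05 in edgeR; DESeq2 and limma-voom also called 0. Among all genes 0.0% passed, with 1120 of 16269 at an unadjusted p under 0.05, 3 called by DESeq2 and 0 by limma-voom. Fold changes of the 9 members ran from -0.14 for Fcgr1 and Tyrobp to 0.3 for Fcgr2b on the log2 scale. The SE was 0.15 for Trem2, 0.25 for Fcgr3 and 0.32 for Fcer1g, but 1.06 for Msr1. For Msr1 a change of several-fold would not be detectable in this fit, whose spread is shared over all 16 libraries. Fitted without WT LPS replicate 1 the SE was 0.11 for Trem2, 0.08 for Fcgr3, 0.15 for Fcer1g and 0.41 for Msr1. In that fit 0 of 10 members and 0 of 16504 genes passed in this comparison. Itgam, for example, stood at 20.2 to 23.6 CPM in KO LPS and 16.8 to 23.3 CPM in KO PBS, Fcer1g at 3.65 to 4.63 CPM in KO LPS and 3.44 to 4.6 CPM in KO PBS, and Cd68 at 5.12 to 6.5 CPM in KO LPS and 5.15 to 5.69 CPM in KO PBS. KO PBS replicates 1 to 4 held 0.0949, 0.091, 0.252 and 0.201 CPM of Msr1, 3 to 9 counts each. Fcgr4 held 5, 0, 4 and 4 counts in KO PBS, so at this depth no difference from KO LPS could be read.

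The genotypes were also compared under PBS. In KO PBS against WT PBS 0 of the 9 members passed and 0 had an unadjusted p under 0.05 in edgeR, where 0.0369% of all genes passed. DESeq2 and limma-voom also called 0, with 0 and 2 members at an unadjusted p under 0.05, where DESeq2 called 17 and limma-voom 308 of all 16269 genes and 904 and 3732 had an unadjusted p under 0.05. Fold changes ran from -0.33 ± 1.05 for Msr1 to 0.27 ± 0.23 for Tyrobp. Fcgr3 was the 1 tested member whose groups did not overlap, with 8.71, 6.95, 7.56 and 7.92 CPM in KO PBS and 6.73, 6.85, 6.44 and 6.74 CPM in WT PBS; 3.28% of all genes did not overlap. Its log2 fold change of 0.22 ± 0.25 did not pass (adjusted p = 0.926). Trem2 had 9.89, 8.71, 9.18 and 8.05 CPM in KO PBS, and its log2 fold change was 0.17 ± 0.15 (adjusted p = 0.922). KO PBS includes the library whose Tspo level goes against its label, and without it 0 members passed in either comparison that uses this group.

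The difference between the LPS effects of the genotypes was tested as an interaction, the LPS effect in KO minus that in WT. Of the 9 members 1 passed, Fcgr3 at -1.53 ± 0.35 on the log2 scale with an adjusted p of 0.05, just under the threshold, where 1.15% of all genes passed. The other members had interactions of -5.52 ± 1.41 for Msr1 (adjusted p = 0.061), -1.55 ± 0.49 for Fcgr1 (0.0945), -1.4 ± 0.45 for Fcer1g (0.0994) and 0.37 ± 0.21 for Trem2 (0.317). Between -0.63 and -1.13 lay Fcgr2b, Cd68, Tyrobp and Itgam, which did not pass either. Without WT LPS replicate 1 all 10 passed, 9 negative and Trem2 positive (0.55 ± 0.17, adjusted p = 0.0379), where 16.1% of all genes passed. Leaving out any other library except WT PBS replicate 4 left 0 members past the threshold. DESeq2 called 5 members and 1278 of all 16269 genes, and limma-voom with sample quality weights called 8 members and 4029 genes.

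Levels can be set between genes when divided by transcript length. In CPM per kilobase of the principal transcript, Tyrobp was highest in each group: 12.3 ± 1.67 in KO LPS, 19.4 ± 6.95 in WT LPS, 13.6 ± 1.83 in KO PBS and 11.3 ± 1.09 in WT PBS (SD, n = 4). Trem2 came second in KO LPS (7.89 ± 0.788), KO PBS (8.23 ± 0.714) and WT PBS (7.34 ± 0.832), and seventh in WT LPS at 5.44 ± 1.4. In WT LPS the order began with Tyrobp, Fcer1g at 16.2 ± 8.28 and Fcgr3 at 14.2 ± 5.8, and every neighbouring pair in it overlapped between libraries. In the other 3 groups the order from the third place was Fcer1g, Fcgr3, Cd68, Itgam, Fcgr2b, Fcgr1, Msr1 and Fcgr4. Neighbours there that overlapped in all 3 groups were Cd68 and Itgam. Fcer1g and Fcgr3 overlapped in KO LPS and KO PBS, Msr1 and Fcgr4 in KO PBS and WT PBS, Itgam and Fcgr2b in KO LPS, and Trem2 with Fcer1g and Fcgr3 with Cd68 in WT PBS.

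Among the 4 IgG receptors, the makeup per length shifted in the high WT LPS libraries. Fcgr4 made up 0.503 ± 0.122% of their summed CPM per kilobase in KO LPS (SD, n = 4), 0.759, 13.8, 14.0 and 13.6% in WT LPS replicates 1 to 4, and 1.31 ± 0.239% in WT PBS. Fcgr2b, the inhibitory member, made up 37.1 ± 5.21% in KO LPS, 34.8% in WT LPS replicate 1, 17.8 to 21.8% in WT LPS replicates 2 to 4, and 31.8 ± 2.28% in WT PBS. Its share was thus lower in the same 3 libraries although its own level was higher there. Fcgr3 supplied the largest share in each group, with 54.4 ± 4.92% in KO LPS, 56.3 ± 1.94% in WT LPS, 57.8 ± 2.61% in KO PBS and 56.0 ± 1.08% in WT PBS. Fcgr1 gave 9.54 ± 1.95% in WT LPS and 10.9 ± 1.53% in WT PBS.

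**Figure D3:**
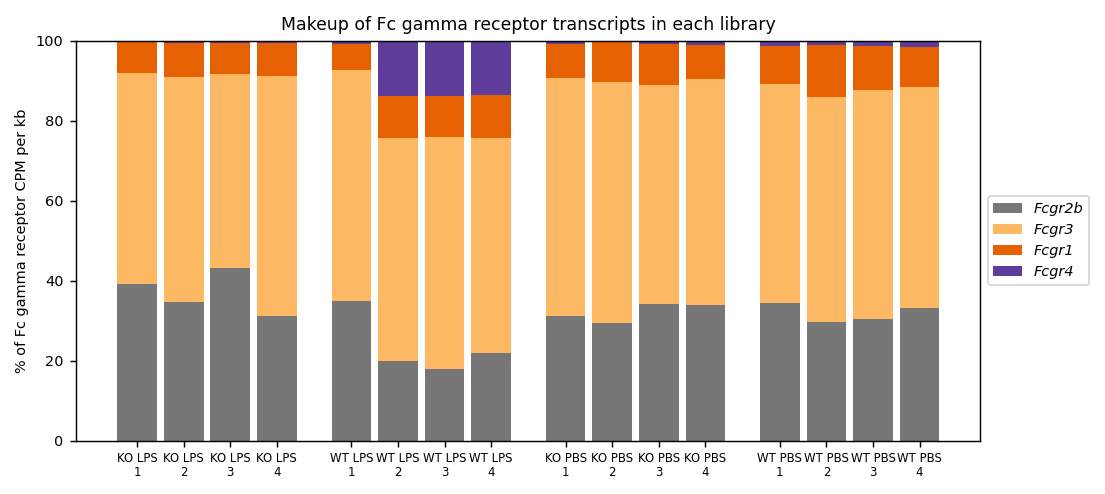
Share of each of the 4 IgG receptor genes in their summed CPM per kilobase (vertical axis, %), one bar per library, grouped as KO LPS, WT LPS, KO PBS and WT PBS. Fcgr4 takes 13.6 to 14.0% in WT LPS replicates 2 to 4 and at most 1.64% in the other libraries.

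Pairs of genes were also compared within each library, 6 pairs in 2 comparisons, with 12 exact two-sided permutation tests of the difference in log2(CPM + 0.25). The added 0.25 CPM weighs most on Msr1 and Fcgr4, which were near or below it outside WT LPS replicates 2 to 4. None had an unadjusted p under 0.05 or passed after adjustment over the 12, and 4 against 4 libraries cannot give a p below 0.0286. The receptor over its adaptor, Trem2 over Tyrobp, was 0.25, 0.38, 0.25 and 0.33 on the log2 scale in KO LPS, 0.63, -1.09, -1.26 and -1.47 in WT LPS, and 0.22, 0.17, 0.49 and 0.39 in WT PBS. The ratio was thus lower in 3 WT LPS libraries than in any KO LPS or WT PBS library and higher in the fourth than in any of them; it is not divided by length, so it does not say which of the 2 transcripts was more abundant. The mean difference of WT LPS from WT PBS was -1.12 (exact p = 0.143, adjusted p = 0.156). The mean difference of KO LPS from WT LPS was 1.1 (exact p = 0.143, adjusted p = 0.156). Msr1 over Cd68 averaged -0.7 ± 1.89 in WT LPS and -3.58 ± 0.17 in WT PBS (difference 2.88, exact p = 0.0571, adjusted p = 0.137); with 1 CPM added in place of 0.25 the difference was 1.94.

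Ratios of activating to inhibitory IgG receptors did not pass either. Fcgr3 over Fcgr2b averaged -0.36 ± 0.33 in KO LPS, 0.37 ± 0.41 in WT LPS and -0.11 ± 0.12 in WT PBS. WT LPS differed from WT PBS by 0.48 on the log2 scale (exact p = 0.114, adjusted p = 0.156), and KO LPS from WT LPS by -0.73 (exact p = 0.0571, adjusted p = 0.137). Fcgr1 over Fcgr2b averaged -2.07 ± 0.26 in KO LPS and -1.21 ± 0.67 in WT LPS (difference -0.85, exact p = 0.0857, adjusted p = 0.147). Fcgr4 over Fcgr2b averaged -5.01 ± 0.38 in KO LPS and -2.3 ± 1.6 in WT LPS (difference -2.71, exact p = 0.0571, adjusted p = 0.137), and with 1 CPM added the difference was -1.53. For the adaptors, Fcer1g over Tyrobp averaged -0.11 ± 0.37 in WT LPS and -0.64 ± 0.16 in WT PBS (difference 0.53, exact p = 0.0857, adjusted p = 0.147).

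**Figure D4:**
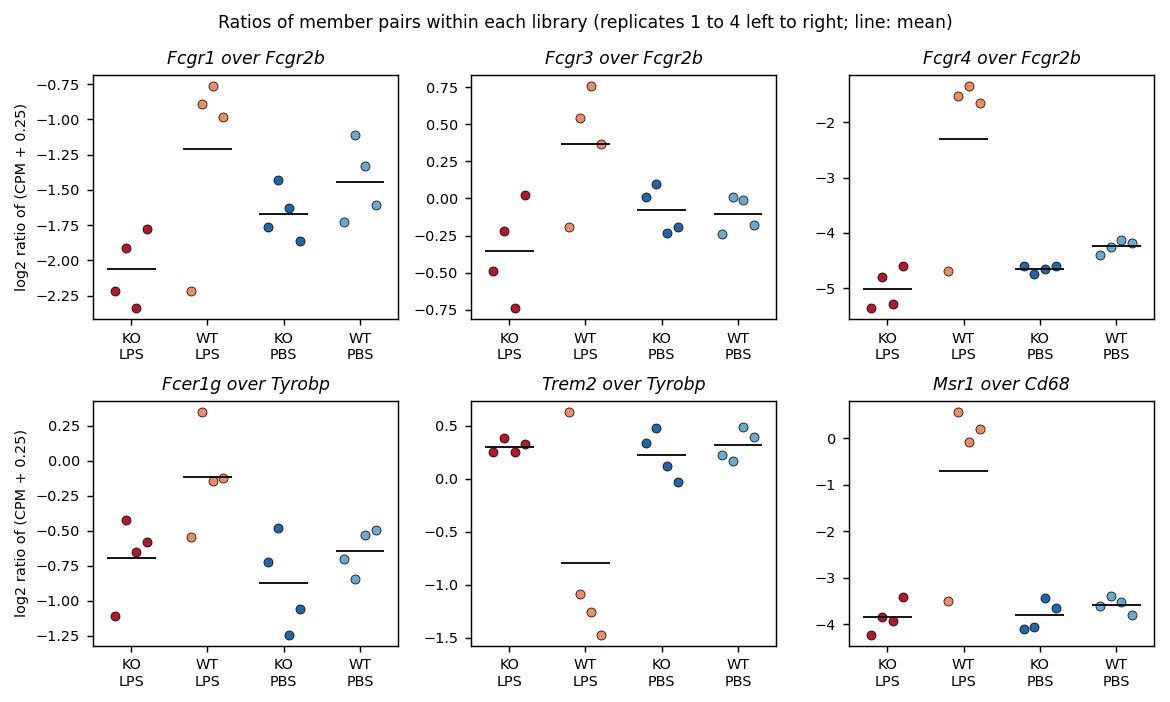
Log2 ratio of CPM + 0.25 for 6 pairs of genes (vertical axes) in the 4 libraries of KO LPS, WT LPS, KO PBS and WT PBS; points are libraries and lines are means. Trem2 over Tyrobp lies between -1.47 and -1.09 in WT LPS replicates 2 to 4 and at 0.63 in replicate 1.

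Part of the shared signalling machinery also differed. Of 23 genes of Fc receptor and ITAM signalling, 22 were tested. In WT LPS vs WT PBS 12 were higher and 0 lower, where 4.72% of all genes were higher and 3.85% lower. In KO LPS vs WT LPS 12 were lower and 0 higher, where 7.28% of all genes were lower and 4.61% higher. The median log2 fold change of the 22 was 0.78 in WT LPS vs WT PBS and -0.66 in KO LPS vs WT LPS, beside 0.0 over all genes. Ptpn6 (SHP-1, a phosphatase recruited by inhibitory receptors) averaged 8.88 ± 4.17 CPM in WT LPS and 2.56 ± 0.507 CPM in WT PBS (log2 fold change 1.79 ± 0.3, adjusted p = 0.00382). Pik3ap1 (an adaptor to PI3 kinase) and Was (an actin regulator used in engulfment) rose by log2 fold changes of 1.8 ± 0.32 and 1.32 ± 0.26. In KO LPS Ptpn6 averaged 2.89 ± 0.184 CPM, lower than in WT LPS (log2 fold change -1.62 ± 0.3, adjusted p = 0.00515). Lyn, Btk, Vav1, Plcg2, Inpp5d, Rac2, Nckap1l and Pik3cg were also among the 12 that were higher in WT LPS. The 12 that were lower in KO LPS included the adaptors Lcp2 (log2 fold change -1.21), Lat2 (-1.31) and Card9 (-0.76), which were not among the 12 higher in WT LPS. In each comparison 10 of the 22 did not pass, and they were not the same 10. The kinase gene Syk was not among the called genes in either comparison.

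A list of other receptors was drawn up around DAP12 and the gamma chain, and its calls went both ways. Not every gene on it, Fcrls among them, is an established partner of these adaptors. Of 17 listed, 6 passed the filter on low counts. In WT LPS vs WT PBS 1 was higher and 1 lower, beside 4.72% and 3.85% of all genes. In KO LPS vs WT LPS 2 were higher and 1 lower, beside 4.61% and 7.28% of all genes. Clec5a, a DAP12-coupled lectin, averaged 3.83 ± 1.81 CPM in WT LPS and 1.45 ± 0.101 CPM in WT PBS and rose (log2 fold change 1.41 ± 0.32, adjusted p = 0.0157). Fcrls, a receptor typical of microglia, averaged 9.93 ± 2.78 CPM in WT LPS and 17.6 ± 2.33 CPM in WT PBS and fell (-0.83 ± 0.16, adjusted p = 0.00748). In KO LPS, Fcrls (16.1 ± 0.792 CPM) and Siglech were higher than in WT LPS and Clec5a was lower; the median of the 6 was -0.06 in WT LPS vs WT PBS and -0.17 in KO LPS vs WT LPS. With no filter 15 were tested, with 5 higher, 1 lower and a median of 1.41 in WT LPS vs WT PBS, and with 2 higher, 6 lower and a median of -1.15 in KO LPS vs WT LPS, beside 0.01 and -0.0 over all genes. Of all 19449 genes, 787 were higher and 590 lower in WT LPS vs WT PBS with no filter, and 690 and 1192 in KO LPS vs WT LPS. The result for this list thus depends on whether its low-count members are kept.

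A list of 28 other scavenger and engulfment genes held receptors, and also secreted ligands such as Pros1 and intracellular adaptors such as Gulp1. Of these 28 genes 24 were tested. In WT LPS vs WT PBS 6 were higher and 0 lower, beside 4.72% and 3.85% of all genes, and the median log2 fold change was -0.02. The 6 were Cd163, Cd14, Stab1, Itgb2, Pros1 and Scara3, and the other 18 did not pass. Itgb2 encodes CD18, the beta chain that pairs with the Itgam product, and averaged 12.2 ± 5.72 CPM in WT LPS and 4.31 ± 0.669 CPM in WT PBS (log2 fold change 1.5 ± 0.31, adjusted p = 0.01). Cd14, a co-receptor for LPS, averaged 5.06 ± 2.47 CPM in WT LPS and 1.51 ± 0.217 CPM in WT PBS (1.74 ± 0.33, adjusted p = 0.00649). Stab1 averaged 37.5 ± 13.5 CPM in WT LPS and 15.9 ± 2.21 CPM in WT PBS. In KO LPS 7 of the 24 were lower than in WT LPS, all 6 of these among them, and Gulp1 was higher. Of all genes 7.28% were lower and 4.61% higher there.

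Lysosomal genes, the compartment of Cd68, made up another list. Of 20 listed 19 were tested. In WT LPS vs WT PBS 6 were higher (Grn, Ctsl, Ctss, Ctsc, Ctsz and Gusb) and Hexa was lower, beside 4.72% and 3.85% of all genes. The median log2 fold change was 0.17. The cathepsin gene Ctss averaged 70.6 ± 24.2 CPM in WT LPS and 41.0 ± 4.68 CPM in WT PBS (log2 fold change 0.78 ± 0.2, adjusted p = 0.0254). Grn, the progranulin gene, averaged 74.3 ± 17.2 CPM in WT LPS and 48.2 ± 3.45 CPM in WT PBS (0.62 ± 0.13, adjusted p = 0.00991). In KO LPS 7 of the 19 were lower than in WT LPS and Hexa was higher, beside 7.28% and 4.61% of all genes. Without WT LPS replicate 1 the counts in WT LPS vs WT PBS became 19 higher and 0 lower of 23 for Fc and ITAM signalling. They were 3 and 2 of 8 for the list around DAP12 and the gamma chain. For the other scavenger and engulfment genes they were 9 and 3 of 25. For the lysosome they were 12 and 1 of 20, beside 1797 and 1583 of 16504 for all genes.

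Markers of neutrophils and border macrophages were also higher in WT LPS. Neutrophils and monocytes also carry Itgam, Fcer1g, Tyrobp and the IgG receptors. The sum of 8 neutrophil markers was 1.36 to 2.82 CPM in KO LPS, 2.2, 12.1, 11.5 and 17.3 CPM in WT LPS replicates 1 to 4, 1.15 to 1.79 CPM in KO PBS and 1.04 to 1.6 CPM in WT PBS. All 4 neutrophil markers tested (S100a8, S100a9, Ngp and Cxcr2) rose in WT LPS. With no filter 6 of 8 were higher, where 787 of 19449 genes were. In WT LPS replicates 2 to 4 Mmp8 stood at 0.64 to 0.862 CPM and Retnlg at 0.793 to 1.22 CPM. In WT PBS the values of these 2 genes were 0.0 to 0.029 and 0.0 to 0.058 CPM. The granule gene Camp was at 0.0 to 0.152 CPM in WT LPS and 0.0 to 0.145 CPM in WT PBS. Camp and Mmp8 were at 0 in KO PBS. Of 3 monocyte markers tested 0 passed in WT LPS vs WT PBS, but 1 of 5 was higher with no filter. Without WT LPS replicate 1, 2 of 4 were higher. Ly6c2 was lower in KO LPS than in WT LPS (log2 fold change -1.16). In WT LPS replicates 2 to 4 Chil3 stood at 0.78 to 1.47 CPM and Ly6c2 at 1.91 to 2.41 CPM. In WT PBS they stood at 0.0 to 0.087 and 0.666 to 1.16 CPM. Among the other monocyte markers, Plac8 was above every WT PBS library in WT LPS replicates 1 to 4. Ccr2 was above them only in WT LPS replicates 1 and 4, at 0.366 and 0.304 CPM against 0.133 to 0.241 CPM in WT PBS. The 5 listed summed to 21 to 26.8 CPM in KO LPS, 17.9, 32.7, 26.5 and 29.1 CPM in WT LPS, 21 to 26.0 CPM in KO PBS and 20.8 to 24.5 CPM in WT PBS, but Vcan alone gave 16.2, 29.1, 22.8 and 24.6 CPM of the WT LPS sums and 19.3 to 23.2 CPM in WT PBS. Border macrophage markers summed to 6.0 to 9.24 CPM in KO LPS, 9.89 to 13.2 CPM in WT LPS, 6.69 to 7.95 CPM in KO PBS and 4.95 to 7.75 CPM in WT PBS. Of these 7 genes Cd163, F13a1 and Lyve1 rose in WT LPS vs WT PBS, and WT LPS replicate 1, whose receptors stayed near the PBS level, was the lowest of its group but above every PBS library in this sum. The part of these cells in the receptor changes was not tested.

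**Figure D5:**
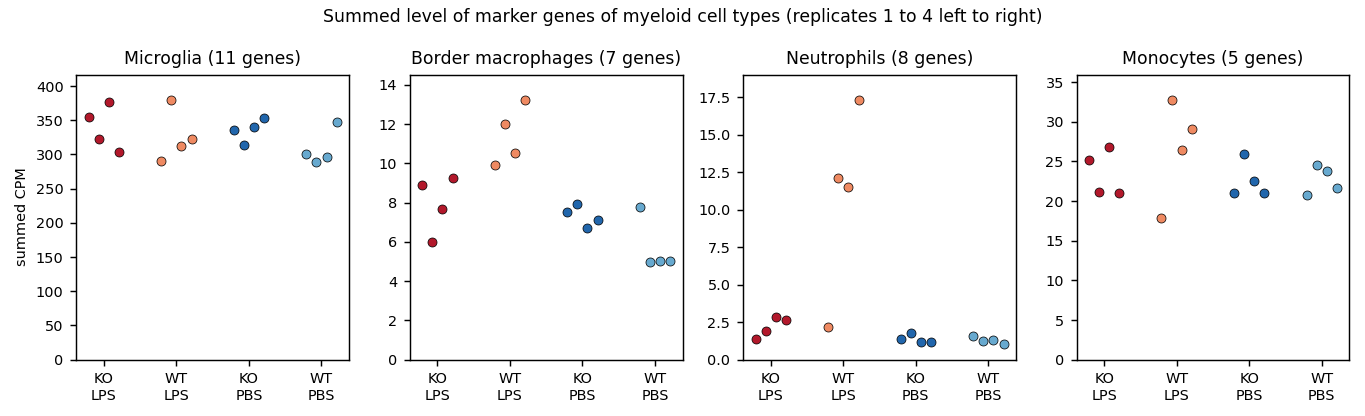
Summed CPM of marker genes of 4 myeloid cell types (vertical axes, each from 0) in the 4 libraries of KO LPS, WT LPS, KO PBS and WT PBS. The neutrophil sum is 11.5 to 17.3 CPM in WT LPS replicates 2 to 4 and at most 2.82 CPM in the other libraries, while the microglial sum stays between 289.0 and 379.0 CPM in all 16.

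Of the 11 microglial markers 1 passed in WT LPS vs WT PBS, P2ry12, which fell (log2 fold change -1.35), and the median of the 11 was -0.05. Fitted without WT LPS replicate 1, 3 of the 11 were higher and 4 lower, beside 1797 and 1583 of 16504 genes. In WT LPS replicates 2 to 4 Gpr34 stood at 1.22 to 1.64 CPM and Csf1r at 95.7 to 114.0 CPM. In WT PBS they stood at 7.22 to 8.17 and 65.7 to 83.2 CPM. In KO LPS vs WT LPS P2ry12, Gpr34 and Selplg were higher and Aif1 was lower. P2ry12 stood at 20.1, 6.06, 6.14 and 4.97 CPM in WT LPS and 22.6 to 25.3 CPM in WT PBS, again with replicate 1 nearest to PBS. P2ry12, a microglial purine receptor, was thus lowest in the same 3 libraries in which Trem2 was lowest and the other 9 members were highest. Oligodendrocyte markers summed to 3220.0 to 7770.0 CPM in WT LPS and 6400.0 to 8390.0 CPM in WT PBS, and 3 of 6 fell, Mog and Mag among them.

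The genes closest in pattern to each member were found by the root mean square difference of log2 CPM, centred on each gene's mean, over the 16 libraries. Complement C1q genes came up for several: C1qa (0.13) and C1qb (0.13) for Fcgr3, C1qa (0.16) for Fcer1g, and C1qc for Tyrobp (0.14) and Cd68 (0.11). The closest to Tyrobp was Tmem176b at 0.08. For Itgam the 3 nearest were Fyb (0.15), Pdk4 (0.17) and Msn (0.17), for Fcgr1 Ly6c1 (0.2), Apobec3 (0.21) and Hcls1 (0.21), and for Fcgr2b Il6ra (0.17), Sowaha (0.2) and Nckap1l (0.2). Msr1 had none so near, with Ms4a6c at 0.62, Timp1 at 0.64 and Selp at 0.68, and for Trem2 they were Hnrnpc (0.12), Emp2 (0.13) and Lyrm7 (0.13). These distances depend on how much a gene varies, since Msr1 had an SD of 2.4 and Trem2 of 0.32 on the log2 scale over the libraries.

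Some of the receptors share sequence, which the authors' counting could have split. Of the 31-base words of the Fcgr3 principal transcripts, 17.7% also occur in Fcgr2b, and 9.07% of the Fcgr2b words occur in another gene's transcripts. Fcgr4 shared 1.31%, while Msr1, Fcgr1, Fcer1g, Tyrobp, Trem2 and Cd68 shared 0.0%. For Itgam 75.0% of the words recur, nearly all in the overlapping same-strand gene Gm49368, which held at most 0.149 CPM in any library. The counts of Fcgr2b and Fcgr3 are in this sense partly uncertain. Counting by strand is not stated.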

How the data were processed

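RNA of mouse hippocampus was sequenced in 16 libraries with a NEBNext Ultra kit, per the labels' protocols. The deposited table holds a whole-number count per gene and library, not scaled for depth or length; per the submitters' processing notes Salmon 1.9.0, MultiQC 1.13, DESeq2 and DESeq were used, with no roles given. It lists 19449 genes, none summing to under 10 counts; 120 identifiers (0.106% of counts) had no symbol in GENCODE M21. Groups came from the labels, and no columns of other samples were present.

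Low counts were removed by filterByExpr in edgeR 4.0.16 under R 4.3.3. This kept 16269 genes and 99.97% of the counts; libraries were TMM-scaled. A quasi-likelihood model with one mean per group was fitted over all libraries (biological coefficient of variation 0.177), with Benjamini-Hochberg adjustment over all genes and a threshold of 0.05. SE is the log2 fold change over the root of F. Ratios used exact permutation tests (scipy 1.17.1). Alternatives were RLE scaling, DESeq2 1.42.0, limma-voom 3.58.1, other filters, replicate number as a block and left-out libraries. The pipeline was tested on simulated data. WT PBS replicates 2 and 3 differed by more than counting noise (chi-square per degree of freedom 3.782) but by less than any other pair of a group (12.27 to 112.7), which does not show that they come from separate animals; they were kept as 2 libraries, with their sum as an alternative that removes the Fcgr1 and Tyrobp calls in WT LPS vs WT PBS. Reads carry no molecular identifiers. The members, pathway lists and markers were chosen with earlier results of these data known. Values of some list genes are not reported here. Named beyond the members and Tspo are, per list, up to 4 genes with the smallest p in WT LPS vs WT PBS, the 3 nearest genes per member, and, after their values were seen, the remaining called list genes and markers.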

Additional observations from a re-analysis of the deposited data

Results flagged for a closer look

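In each of 40 sets of 4 libraries (a gene in a group), the gap between the most extreme library and the next was compared with the group's range, a rule that chance meets in about 1 set in 20; 6 sets met it. WT LPS replicate 1 was the low library in 4 of them: Fcgr1 at 1.65 CPM, Fcgr3 at 7.48 CPM, Fcgr4 at 0.0916 CPM and Tyrobp at 5.1 CPM. In the other 2, KO PBS replicate 2 was low, for Fcgr2b at 6.46 CPM and for Fcgr4 at 0.0 CPM (0 counts, where its group held 4 to 5). The LPS effect of Fcgr3 differed between KO and WT by an interaction of -1.53 on the log2 scale.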

How the results depend on the processing

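Over the alternatives other than left-out single libraries, 368 fold changes of the members kept their direction and their side of the threshold, 37 gained a call, 22 lost one and 6 turned direction. In WT LPS vs WT PBS the 8 calls became 0 when the other 8 libraries were kept out of the fit, and 5 to 10 when single libraries were left out (5 without WT LPS replicate 3, 10 without replicate 1). The 7 calls of KO LPS vs WT LPS became 1 in the same way, and 4 to 10 when single libraries were left out. The interaction call, 1, became 0 with RLE scaling, with no filter, with a threshold of 1 CPM in 4 libraries and with WT PBS replicates 2 and 3 summed. It became 5 with DESeq2, 8 with limma-voom, 9 without WT LPS replicate 1 and KO PBS replicate 1, 10 without WT PBS replicate 1 and WT LPS replicate 1 (chosen after seeing the data), and 0 to 10 when single libraries were left out. Msr1 over Cd68 in KO LPS vs WT LPS, at -3.15, became -2.13 with a pseudocount of 1 CPM (exact p = 0.0286, the smallest possible), and Fcgr4 over Fcgr2b, at -2.71 there and 1.94 in WT LPS vs WT PBS, became -1.53 and 1.02. The cause of these changes was not tested.

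Turned directions all belong to fold changes near 0 that never passed. In KO LPS vs KO PBS, Msr1 was -0.17 with limma-voom and -0.08 without both replicates 1 of WT LPS and KO PBS, where Fcgr3 was 0.04. In KO PBS vs WT PBS, Fcer1g was -0.05 without those 2 libraries, -0.02 with WT PBS replicates 2 and 3 summed and -0.0 without the replicates 1 of WT. Leaving out single libraries gave -0.21 to 0.46 for Msr1, -0.07 to 0.04 for Fcgr3 and -0.02 to 0.12 for Fcer1g in KO LPS vs KO PBS, and -0.11 to 0.05 for Fcgr1, -0.05 to 0.13 for Fcer1g and -0.06 to 0.1 for Itgam in KO PBS vs WT PBS. With the replicate number as a replicate block, 7, 6, 0 and 0 members passed in WT LPS vs WT PBS, KO LPS vs WT LPS, KO LPS vs KO PBS and KO PBS vs WT PBS, and 0 in the interaction. Of 24 same-numbered pairs 2 had a correlation of deviations over 0.1 (-0.232 to 0.364), so the numbers do not pair the libraries. Low counts limit Msr1 and Fcgr4 outside WT LPS.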
